A study of Homo sapiens with 6 samples.

Results

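PRPF19, the gene that encodes Prp19, and 9 genes that encode its partners in the Prp19/CDC5L complex were followed in SK-N-BE(2) neuroblastoma cells in which Prp19 was silenced. The 10 genes were PRPF19, CDC5L, PLRG1, BCAS2, CTNNBL1, CWC15, XAB2, CRNKL1, ISY1 and SYF2. They were chosen for the known membership of their proteins in it and not by their measured values, although earlier results of these data were known. They were found by Ensembl identifier and GENCODE 29 symbol among the 58302 genes listed in each sample, and all 10 were present in all 6 samples. PRPF19 mRNA was lower in every siPrp19 sample than in every NC sample, at 49.0% of the NC mean. The mean levels of the 9 partner mRNAs with siPrp19 were 94.5% to 109.2% of those in NC, and none of the 9 passed an FDR of 0.05 in any fit that was run. In limma on FPKM, with or without the replicate number as a block, no gene of the 14462 tested passed it, PRPF19 included. Among genes averaging 5 FPKM or more, 124 passed it in limma with the block, and PRPF19 was 1 of them. In the fit of the recovered reads with that block 7.09% of 13602 genes passed it.

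The complex is named after Prp19, a splicing factor first described in yeast. It joins the spliceosome as the U4 small nuclear RNA leaves, stays through both catalytic steps and helps to keep the U2, U5 and U6 RNAs in their catalytic arrangement. Prp19 itself is a ubiquitin ligase of the U-box type that assembles into a tetramer, and its ubiquitin chains are placed on proteins of the U4/U6.U5 tri-snRNP. In human cells the core contains Prp19, CDC5L, PLRG1 and SPF27 (the product of BCAS2), with CTNNBL1 and CWC15 as further members. XAB2, ISY1, CRNKL1 and SYF2 belong to the tetratricopeptide-repeat and helical proteins that are recruited with or around this core.

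SK-N-BE(2) is an established human neuroblastoma line that carries many copies of MYCN. The 3 NC samples were transfected with a negative control siRNA and the 3 siPrp19 samples with an siRNA against Prp19, and both groups were collected after 72 h according to the labels, while the study's methods state a shorter time. The labels do not name the siRNA sequence, and the knockdown was transient. These 6 samples are of this line alone, while the study also silenced Prp19 in SK-N-AS cells. Bulk RNA of whole cultures was sequenced, so a lower level in fewer cells and a lower level in all cells cannot be told apart. The deposited unit was FPKM (fragments per kilobase of exon, scaled by a total for each sample), in which the levels of different genes can be compared per length. The median-of-ratios factor of these values was 1.00736 in every sample, so they had already been brought to a common scale and not scaled to mapped fragments alone.

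The reads that could be recovered from the FPKM values numbered 16918735 to 21807197 per sample. The neuroblastoma markers PHOX2A, HAND2, GATA3, ISL1, DBH, TH and MYCN each averaged 1 FPKM or more, with MYCN at 801 to 1210 FPKM. Of 9 markers of blood, endothelial, fibroblast and epithelial cells, 3 averaged 1 FPKM or more (COL1A1, COL3A1 and EPCAM). CD3E and KRT5 were listed at 0 in all 6 samples, and PTPRC did not exceed 0.116 FPKM. The summed level of these 9 markers, most of it COL1A1, was 47.3 to 59.2 FPKM in NC and 46.2 to 59.8 FPKM with siPrp19. The groups did not overlap for EPCAM, at 128.8% of its NC mean with siPrp19, and for VWF (73.7%) and PECAM1 (36.8%). Among all genes tested, which averaged 1 FPKM or more, 2.77% stood apart in the higher and 2.84% in the lower direction. VWF and PECAM1 averaged under 1 FPKM, with 39 to 64 reads per sample for VWF and 0 to 3 for PECAM1. The part of these 3 markers in the results was not tested. The first principal component of all genes tested held 49.9% of the variance and separated replicate 3 from the other replicates in both groups, so same-numbered samples of both groups were also compared as pairs.

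The members lie on 7 chromosomes of GRCh38, and their promoters were read to show the regulatory sequence of the genes whose levels are described. The 250 bases before the start site were available for all 10 genes in RefSeq (GRCh38.p14). The sequences shown are those of PRPF19, the silenced gene, and of SYF2 and XAB2, the partners whose levels varied most between replicates. They are read 5′ to 3′ on the strand of the gene, and capitals mark each exact match to the ETS motif CCGGAAG or its complement.
PRPF19 (chr11:60906586-60906835, minus strand): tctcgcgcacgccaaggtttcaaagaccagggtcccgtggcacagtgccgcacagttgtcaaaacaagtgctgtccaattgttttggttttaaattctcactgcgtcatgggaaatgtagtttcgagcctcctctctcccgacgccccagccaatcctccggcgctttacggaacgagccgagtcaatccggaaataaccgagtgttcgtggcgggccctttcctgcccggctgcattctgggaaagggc
SYF2 (chr1:25232503-25232752, minus strand): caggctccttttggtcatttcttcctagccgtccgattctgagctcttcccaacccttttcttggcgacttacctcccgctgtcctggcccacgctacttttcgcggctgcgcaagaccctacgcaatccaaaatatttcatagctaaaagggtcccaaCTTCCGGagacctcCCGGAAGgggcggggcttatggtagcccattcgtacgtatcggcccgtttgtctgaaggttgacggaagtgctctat
XAB2 (chr19:7629546-7629795, minus strand): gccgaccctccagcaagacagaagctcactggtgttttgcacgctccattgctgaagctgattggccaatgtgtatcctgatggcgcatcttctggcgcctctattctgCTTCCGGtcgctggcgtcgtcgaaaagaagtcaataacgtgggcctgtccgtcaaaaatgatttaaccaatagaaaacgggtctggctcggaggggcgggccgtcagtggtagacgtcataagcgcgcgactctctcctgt

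Both strands were searched for CCGGAAG and for the E-box CACGTG, the preferred site of MYC-family factors, which do not overlap each other. CCGGAAG was found in 5 of the 10 member promoters, those of PLRG1, CWC15, XAB2, ISY1 and SYF2, and in 8.8% of 27305 promoters of the same length. SYF2 held 2 copies, which began 91 and 77 bases before the start site. The copy of CWC15 began 48 bases, that of ISY1 83 bases and that of XAB2 141 bases before the start site, while that of PLRG1 lay at the far end of the window, 245 bases before it. CACGTG was found in 0 of the 10 member windows and in 6.5% of all promoters. The PRPF19 window held no exact match to either motif, although it held CCGGAAA, whose last base differs from that of CCGGAAG. Shorter or variant forms were not searched for in any window. These matches describe letters in a window and are not sites of measured binding. Both motifs were added later, and the 27305 promoters were not limited to genes expressed in these cells. Whether the matches bear on level or on the variation between replicates was not tested. The G and C content of the 10 windows ran from 44.4% in CRNKL1 to 64.8% in CTNNBL1, with a median of 58.0% over all promoters.

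PRPF19 was examined first, since it was the target. PRPF19 (ENSG00000110107) is encoded on chromosome 11 (minus strand, GRCh38, 60890730 to 60906588) and had 53.1, 53.1 and 64.9 FPKM in NC replicates 1, 2 and 3. With siPrp19 it had 21.8, 28.5 and 33.6 FPKM in replicates 1, 2 and 3. The groups did not overlap, and replicate 3 was the highest sample of each group. Of the 14462 genes tested, which averaged 1 FPKM or more over all samples, 2.84% were lower in all siPrp19 samples than in all NC samples. The mean was 57.0 ± 6.83 FPKM in NC and 27.9 ± 5.91 FPKM with siPrp19 (SD, n = 3 each). The part of the NC level that remained was 41.0% in pair 1, 53.6% in pair 2 and 51.7% in pair 3. PRPF19 was lower in 3 of 3 pairs, as were 21.3% of all genes tested.

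On the log2(FPKM + 0.1) scale the difference of PRPF19, siPrp19 minus NC, was −1.04 with a standard error of 0.19 in limma without a block. Its adjusted p was 0.9999 in this fit, in which 0 genes (0.0%) passed an FDR of 0.05 and 225 had an unadjusted p under 0.05. With the replicate number as a block in limma, the standard error was 0.09, the 95% confidence interval ran from −1.27 to −0.82, which is −58.4% to −43.3%, and the adjusted p was 0.19. In that fit, too, 0 genes (0.0%) passed, with 2265 at an unadjusted p under 0.05. When the recovered reads were fitted with limma voom and the same block, the difference was −1.04 with a standard error of 0.07 and an adjusted p of 1.033e-11. This fit also draws on the spread pooled over genes, while the 3 pair differences of PRPF19 had an SD of 0.21 on the log2 scale. There 7.09% of 13602 genes were called, 4.43% lower and 2.67% higher, and PRPF19 ranked 1 by p-value. An exact two-sided permutation test of PRPF19 over the 3 against 3 samples gave p = 0.1, the smallest that it allows. The difference of PRPF19 passed the threshold with the pairing in the read-based fit, which covered 13602 genes. It did not pass in the FPKM-based fits with or without the block, which covered 14462 genes. In limma on FPKM with the block and only genes averaging 5 FPKM or more, it passed (adjusted p = 0.0176). Its size stood far from that of most genes, as 111 of the 14462 had a lower log2 difference and the 10th and 90th percentiles of all genes were −0.24 and 0.22.

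**Figure D1:**
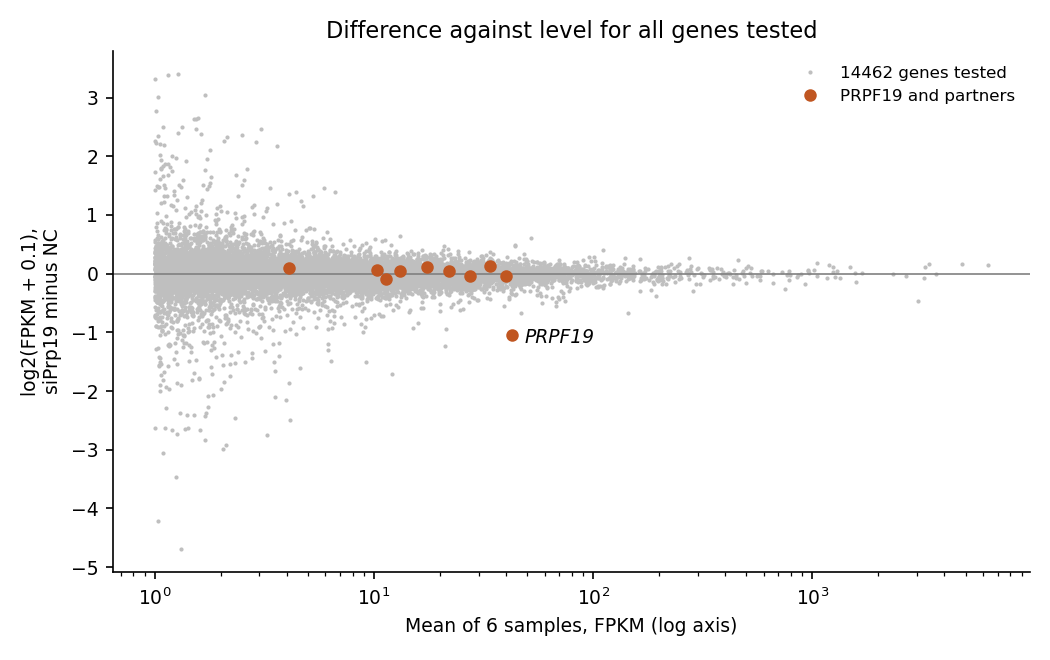
The log2(FPKM + 0.1) difference, siPrp19 minus NC, on the vertical axis is plotted against the mean FPKM of the 6 samples (log axis) for the 14462 genes tested (grey points) and the 10 members (orange points). PRPF19 lies at −1.04, while the 9 partners lie between −0.08 and 0.13, inside the 10th and 90th percentiles of all genes tested (−0.24 and 0.22).

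No partner of the core passed the test. CDC5L, a Myb-like DNA- and RNA-binding protein that holds the core together, lies on chromosome 6 from 44387525 to 44450426 and had 11.4, 12.3 and 11.2 FPKM in NC replicates 1, 2 and 3. With siPrp19 it had 10.6, 12.3 and 9.98 FPKM. The ranges overlapped, and the siPrp19 value was the lower in each pair, although the values of pair 2 were both 12.3 FPKM. CDC5L differed by −0.08 on the log2 scale, with a block interval of −14.8% to 4.4% and an adjusted p of 0.519 in limma with the block.

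PLRG1 encodes a WD40 protein that binds CDC5L and lies on chromosome 4 from 154535006 to 154550435. It had 12.4, 13.3 and 12.9 FPKM in NC and 12.8, 15.4 and 12.1 FPKM with siPrp19. The siPrp19 samples spanned the NC range on both sides, and 2 of 3 pairs were higher. PLRG1 differed by 0.05 on the log2 scale, with a block interval of −8.9% to 17.8%.

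BCAS2, whose product SPF27 links Prp19 to the other core proteins, lies on chromosome 1 from 114567557 to 114581639 and was the most abundant partner. It had 33.1, 44.9 and 44.0 FPKM in NC and 30.9, 46.7 and 41.6 FPKM with siPrp19. Replicate 1 was the lowest sample of both groups, by more than the groups differed. The log2 difference of BCAS2 was −0.04, with a block interval of −11.3% to 6.6%.

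CTNNBL1, an armadillo-like protein that binds CDC5L, lies on chromosome 20 from 37693955 to 37872129 and had 15.9, 17.7 and 16.6 FPKM in NC. With siPrp19 it had 17.3, 20.3 and 17.0 FPKM. It was higher in 3 of 3 pairs, but the groups overlapped. Its log2 difference was 0.12, with a block interval of −1.5% to 19.6% and an adjusted p of 0.367.

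CWC15, a small protein of the core, lies on chromosome 11 from 94962622 to 94973612, the chromosome that also carries PRPF19. It had 25.7, 32.7 and 25.3 FPKM in NC and 22.7, 32.7 and 26.2 FPKM with siPrp19. The values of the 2 groups overlapped almost fully, and replicate 2 was highest in both. Its log2 difference was −0.04, with a block interval of −12.8% to 8.6%.

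No partner outside the core passed it either. XAB2, the human counterpart of yeast Syf1 and a protein that also takes part in transcription-coupled DNA repair, lies on chromosome 19 from 7619525 to 7629565. It had 31.4, 40.9 and 25.3 FPKM in NC and 33.8, 43.4 and 29.3 FPKM with siPrp19. It was higher in 3 of 3 pairs, at 107.6%, 106.3% and 115.8% of NC, although its replicates within a group differed by much more. Its log2 difference of 0.13 had a block interval of 0.7% to 19.6%, the only partner interval that did not include 0. The unadjusted p of XAB2 in limma with the block was 0.0386, and the adjusted p was 0.298 there and 0.147 in voom with the block, so the difference did not pass the threshold.

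CRNKL1, the human counterpart of yeast Clf1, lies on chromosome 20 from 20034368 to 20056046 and had 9.41, 10.6 and 10.1 FPKM in NC. With siPrp19 it had 9.82, 12.5 and 9.48 FPKM. The groups overlapped, and 2 of 3 pairs were higher. For CRNKL1 the log2 difference was 0.07, with a block interval of −8.4% to 20.4%.

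ISY1, which lies near the catalytic centre during the first step of splicing, is encoded on chromosome 3 from 129127415 to 129161293 and was the least abundant member. It had 3.73, 3.82 and 4.29 FPKM in NC and 3.66, 5.11 and 3.999 FPKM with siPrp19. The second siPrp19 replicate alone stood above the NC range, and pair 2 differed by 0.41 on the log2 scale, while pairs 1 and 3 differed by −0.03 and −0.10. ISY1 rested on 276 to 436 reads per sample, the fewest of the 10 genes, and its block interval was the widest, −13.8% to 32.3%.

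SYF2, named after its yeast counterpart, lies on chromosome 1 from 25222679 to 25232502 and had 18.1, 30.3 and 17.4 FPKM in NC. With siPrp19 it had 20.8, 28.1 and 17.8 FPKM. Replicate 2 stood above both other replicates in each group, and the groups overlapped. Its log2 difference was 0.04, with a block interval of −9.5% to 17.1%.

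**Figure D2:**
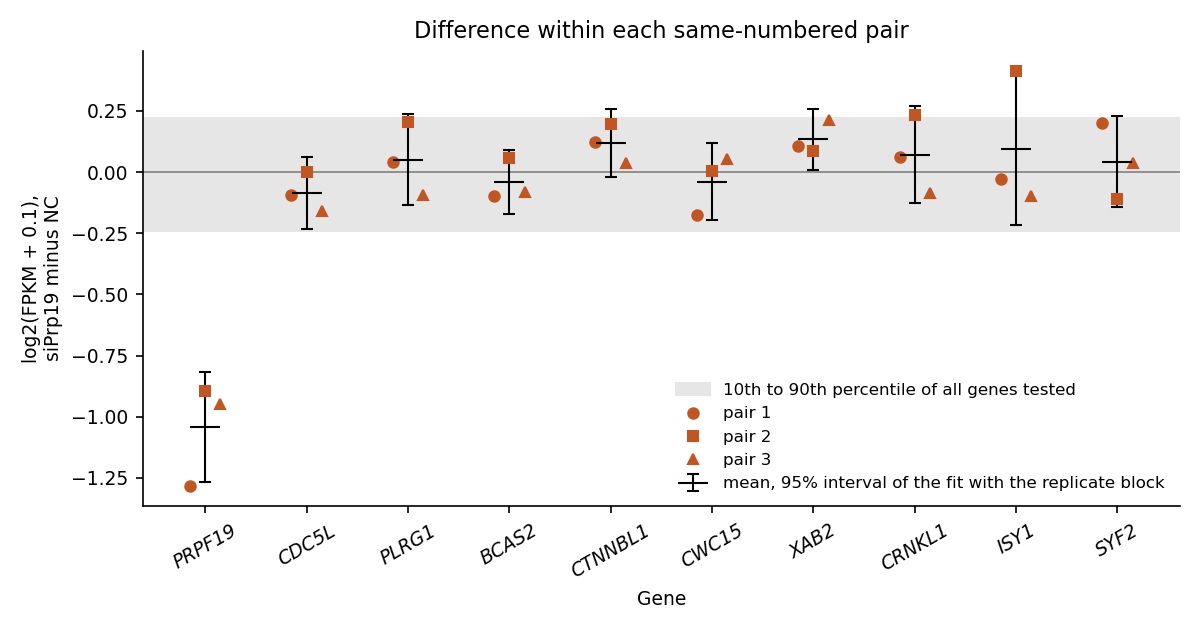
Differences in log2(FPKM + 0.1), siPrp19 minus NC, are shown for pairs 1 (circles), 2 (squares) and 3 (triangles) of each member, with horizontal bars for the mean, vertical bars for the 95% interval of limma with the replicate block and a grey band from the 10th to the 90th percentile of all genes tested. The 3 pairs of PRPF19 lie between −1.28 and −0.90, and the 27 pair values of the partners lie between −0.18 and 0.41.

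Read together, the partners were spread around the centre of all genes. Of the 9 log2 differences, 3 were below 0 and 6 above, with a median of 0.05, beside a median of −0.00 over all genes tested. The partner median was 0.04 in pair 1, 0.09 in pair 2 and −0.08 in pair 3. Lower values in 3 of 3 pairs were seen for 1 partner, CDC5L, beside 21.3% of all genes. Higher values in 3 of 3 pairs were seen for 2 partners, CTNNBL1 and XAB2, beside 19.2% of all genes. For 0 of 9 partners did the groups stand apart, beside 2.84% of all genes in the lower and 2.77% in the higher direction. In exact two-sided permutation tests the partners gave p from 0.3 to 1.0. None of the 9 was called in limma without the block or with it, beside 0.0% of all genes in each fit. With the block in limma their adjusted p ran from 0.298 to 0.808. In voom with the block 0 of 9 were called, beside 7.09% of 13602 genes, and their adjusted p ran from 0.147 to 0.814. At an unadjusted p under 0.05 in limma the count was 0 without the block and 1, XAB2, with the block. Of the 14462 genes tested, 225 and 2265 had such a p in these 2 fits, so XAB2 is not singled out by it. Apart from ISY1, whose block interval reached 32.3%, no partner interval extended above 20.4% or below −14.8%.

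Since partners and target were measured in the same libraries, the ratio of PRPF19 to each partner does not depend on how a library is scaled. The log2 ratio changed with siPrp19 by −0.96 for CDC5L to −1.18 for XAB2. For 8 of 9 partners the ratios of the 2 groups did not overlap, as was so for 78.7% of all other genes tested, and for SYF2 they overlapped. The count thus follows the lower PRPF19 level and is not particular to the partners. The BCAS2 level was 0.715 ± 0.116 of that of PRPF19 in NC and 1.43 ± 0.201 of it with siPrp19 (SD, n = 3 each). The CDC5L level was 0.206 ± 0.0312 of that of PRPF19 in NC and 0.406 ± 0.0985 of it with siPrp19. These ratios all share the values of PRPF19 and are not independent of one another.

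The order of the members by level was the same in all 3 NC samples. PRPF19 stood first at 57.0 FPKM, followed by BCAS2 at 40.6, XAB2 at 32.5, CWC15 at 27.9, SYF2 at 21.9, CTNNBL1 at 16.7, PLRG1 at 12.9, CDC5L at 11.6, CRNKL1 at 10.0 and ISY1 at 3.95 FPKM. The ranges of the 3 NC samples were apart for PRPF19 and BCAS2, for CTNNBL1 and PLRG1, for PLRG1 and CDC5L, for CDC5L and CRNKL1, and for CRNKL1 and ISY1. They overlapped for the neighbours BCAS2 and XAB2, XAB2 and CWC15, CWC15 and SYF2, and SYF2 and CTNNBL1. CDC5L, the protein partner of Prp19 in the core, had an mRNA level per length of 0.206 of that of PRPF19. Among all genes tested, the mean level of PRPF19 lay at percentile 93.8 and that of ISY1 at percentile 39.7.

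With siPrp19, PRPF19 moved to the fourth place in replicates 1 and 2 and to the second place in replicate 3. BCAS2 was then the most abundant member by mean level. PRPF19 made up 24.8%, 20.5% and 28.0% of the summed FPKM of the 10 genes in NC replicates 1, 2 and 3 and 11.8%, 11.6% and 16.7% in the siPrp19 replicates. The 9 partners summed to 161.1, 206.4 and 166.8 FPKM in NC and to 162.4, 216.5 and 167.4 FPKM with siPrp19. Each siPrp19 sum stood close to that of the NC sample with the same number, and replicate 2 stood above the others in both groups.

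**Figure D3:**
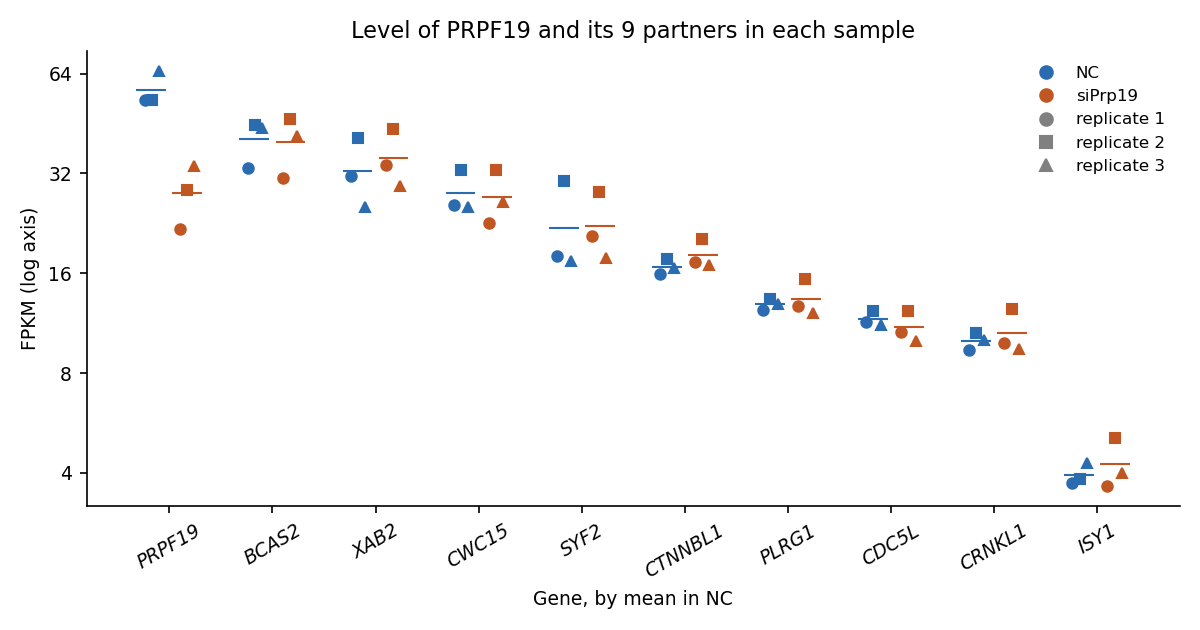
FPKM (log axis) of PRPF19 and its 9 partners is shown in each of the 3 NC samples (blue) and the 3 siPrp19 samples (orange), with replicate 1 as circles, replicate 2 as squares, replicate 3 as triangles and a bar at the mean of each group. PRPF19 leads the NC samples only, while squares lie at the top of both groups for every partner except ISY1, whose NC samples are led by replicate 3.

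The partners varied between replicate numbers. For each member the mean log2 level of the NC and siPrp19 samples with the same number was taken, and the range over the 3 numbers was set beside the size of the knockdown difference. The range was 0.73 for SYF2, 0.63 for XAB2, 0.52 for BCAS2 and 0.43 for CWC15, beside differences of 0.04, 0.13, 0.04 and 0.04. It was 0.19 to 0.26 for PLRG1, CTNNBL1, CDC5L, ISY1 and CRNKL1, and exceeded the knockdown difference for all 9 partners, as it did for 91.5% of all genes tested. PRPF19 was the only member for which it was the smaller, with a range of 0.46 beside a difference of 1.04.

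The direction of this variation was shared. In both groups 8 of 9 partners had their highest FPKM in replicate 2, as had 29.4% of all genes tested, and the exception was ISY1. With the values rescaled to TPM, which sum to the same total in each sample, the count was 7 of 9 beside 23.2% of all genes. PRPF19 itself was highest in replicate 3 of both groups. This pattern was noticed after the values were seen and was given no test, and genes in the same libraries are not independent of each other. What distinguishes replicate 2 is not given in the labels.

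Other genes of the splicing pathway were examined in 3 lists of 27 genes in all. They held 9 further proteins that join with the complex or bind the intron, 12 helicases and step factors that act with it at the catalytic stage, and 6 genes of the ubiquitin cycle of the tri-snRNP, in which Prp19 is the ligase. In limma without and with the block 0 of 27 were called, beside 0.0% of all genes in each fit. In voom with the block 1 of the 26 with recovered reads was called higher and 0 lower, beside 2.67% and 4.43% of the 13602 genes in that fit. In the 3 pairs 3 of 27 were lower throughout and 8 of 27 higher throughout, beside 21.3% and 19.2% of all genes. For 0 of 27 did the groups stand apart, beside 2.84% of all genes in the lower and 2.77% in the higher direction. Replicate 2 was the highest in both groups for 21 of 27 (20 of 27 in TPM), the same direction as for the partners.

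The gene called was PRPF8, the large U5 protein at the heart of the spliceosome. PRPF8 had 37.6, 36.9 and 32.9 FPKM in NC and 42.7, 42.8 and 36.3 FPKM with siPrp19. The siPrp19 sample exceeded its NC sample in 3 of 3 pairs, but the lowest siPrp19 value lay within the NC range. Its log2 difference was 0.18, with an adjusted p of 0.0242 in voom with the block and 0.211 in limma with the block. The other 5 genes of the ubiquitin cycle, among them PRPF3, which Prp19 ubiquitinates, and the deubiquitinases USP4 and USP15, were not called. Their list had a median log2 difference of 0.06, from −0.01 for PRPF31 to 0.18 for PRPF8.

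The helicases and step factors had a median of 0.04, with 3 of 12 below 0. The largest difference was that of CWC25, a factor of the first catalytic step, which had 7.83, 11.8 and 8.55 FPKM in NC and 9.41, 13.7 and 9.40 FPKM with siPrp19. CWC25 was higher in 3 of 3 pairs by 0.20 on the log2 scale, with an adjusted p of 0.0964 in voom with the block. The lowest difference was that of PRPF18, a factor of the second step, at −0.11. The further proteins of the complex had a median of −0.00, from −0.13 for ZNF830 to 0.07 for SNW1, the human counterpart of yeast Prp45, and 0 of 9 were called in any of the 3 fits.

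**Figure D4:**
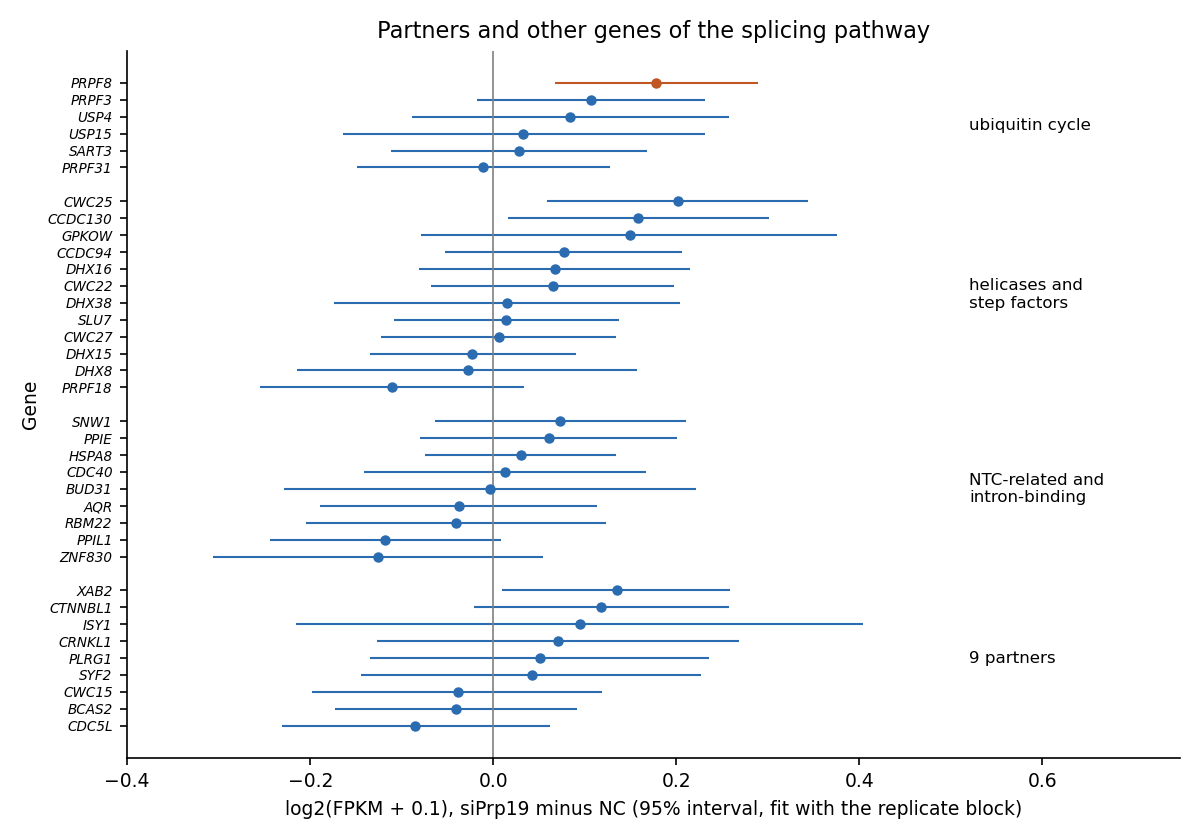
The log2(FPKM + 0.1) difference, siPrp19 minus NC (points), is shown with its 95% interval from limma with the replicate block (lines) for the 9 partners and the 27 further genes, grouped by list. PRPF8, in orange, is the 1 gene called in voom with the block, and all estimates lie between −0.13 and 0.20.

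The genes whose level over the 6 samples was most like that of PRPF19 were SENP2, MAP3K7, SLC25A24, LMAN2 and PITPNB. They were chosen by Pearson correlation of log2(FPKM + 0.1) among 7912 genes that averaged 5 FPKM or more, with r from 0.994 for SENP2 to 0.984 for PITPNB. The 6 points fall into the 2 groups and share their libraries, so the values are a description, and 85 genes had an r of at least 0.9. SENP2, which removes SUMO from proteins, had 7.35, 7.45 and 8.02 FPKM in NC and 5.76, 6.23 and 6.68 FPKM with siPrp19. LMAN2, a cargo receptor of the early secretory pathway, had 46.5, 46.6 and 48.1 FPKM in NC and 37.5, 38.6 and 42.4 FPKM with siPrp19. Like PRPF19, both were higher in NC than with siPrp19 in every sample and highest in replicate 3 of each group. The choice by correlation favours such a likeness. Their means with siPrp19 were 81.8% and 84.0% of NC. MAP3K7 was at 84.5%, SLC25A24 at 75.9% and PITPNB at 84.9% of NC. None of the partners was among the like genes, since their r with PRPF19 ran from −0.51 for CTNNBL1 to 0.33 for BCAS2, and ISY1 was below 5 FPKM.

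Genes that share sequence with a member were listed at or near 0. PRPF19P1, the processed pseudogene named after PRPF19, was listed at 0 in all 6 samples, as were those of SYF2. Of 3 pseudogenes of BCAS2, 2 were listed at 0 and BCAS2P2 did not exceed 0.674 FPKM. The readthrough gene ISY1-RAB43 shares 912 bases, or 22.2%, of the ISY1 exons on the same strand and was listed at 0 in all samples, so the ISY1 level is uncertain where reads in shared exons were not counted for either gene. CFAP61 overlaps 4.8% of the CRNKL1 exons on the opposite strand and did not exceed 0.166 FPKM.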

How the data were processed

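Gene expression was measured by RNA-seq in 3 NC and 3 siPrp19 samples of SK-N-BE(2) cells, grouped by the treatment label. For each sample the authors deposited FPKM values of all genes. The submitters' processing notes name HISAT2 2.0.5, featureCounts 1.5.0-p3 and hg38. The library kit does not mark strand, and the study's methods state that biological replicates were performed. p-values measure the spread between these samples, which limma and voom pool in part over genes.

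The 10 members, the lists and the alternatives were chosen with earlier results of these data known. Symbols were taken from GENCODE release 29 (58039 of 58302 identifiers found), and CCDC94 was matched as YJU2. Median-of-ratios factors were the same for every sample, and tests were run on log2(FPKM + 0.1). The 14462 genes averaging 1 FPKM or more entered limma 3.58.1 under R 4.3.3 (eBayes with trend, Benjamini-Hochberg over all genes, FDR 0.05), without a block since the study's methods name none, and again with replicate number as block. Same-numbered samples deviated together from their group means (r = 0.38, 0.57 and 0.64 for numbers 1, 2 and 3), so the numbers in the labels were taken to pair the samples. Other pairs had r from −0.53 to 0.05. These are not separate evidence of pairing, because deviations sum to 0 within a group.

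FPKM times exon length gave whole numbers of reads, once divided by the worth of 1 read in that sample (tolerance 0.02 reads, all 6 samples) for 97.3% of matched genes and 95.8% of those above 0. These reads were tested with limma voom, with and without the block. Counting error on a member was at most 6.0%. Exact permutation tests used scipy 1.17.1 under Python 3.11.15, and tables and plots used numpy 2.4.6, pandas 2.3.3 and matplotlib 3.10.9. The tests across genes were tested on simulated data. Other alternatives were a pseudocount of 1, no filter, a filter at 5 FPKM, unscaled FPKM, TPM, quantile normalization, eBayes without trend and robust, the block with the filter at 5 FPKM, and each sample or pair left out.

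Named genes were the 10 members, from each list the genes past the FDR in limma or voom with the block and those with the largest rise and fall, the 5 genes most like PRPF19, and pseudogenes and overlapping genes of members. The 2 promoter motifs were added later. A further marker of the neuroblastoma list is not reported here.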

Additional observations from a re-analysis of the deposited data

How the results depend on the processing

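The count of partners past an FDR of 0.05 was 0 in each of the 20 alternatives. The count over all genes was 0 in limma without the block and with the replicate block, 1 without trend and robust, 124 with the block and the filter at 5 FPKM, and 965 in voom with the block. It was 0 in each fit without 1 sample and 267 to 1230 in voom with the block without 1 pair (267 without pair 1, 634 without pair 2, 1230 without pair 3). With the replicate block PRPF19 was called in 5 settings, at −1.04 with the filter at 5 FPKM (adjusted p = 0.0176), at −1.04 in voom and in voom without each pair in turn, and no partner was called. Without 1 sample PRPF19 ranged from −1.19 to −0.88, and without 1 pair in voom from −1.11 to −0.93 (−1.09 without pair 3). With 2 pairs, voom rests on 1 residual degree of freedom per gene and on the spread pooled over genes.

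The partner median was −0.052 without siPrp19 replicate 2 and otherwise −0.03 to 0.13. Signs of partners near 0 turned only where a sample or pair was left out. BCAS2 was 0.04 without NC replicate 2, 0.02 without NC replicate 3 and 0.13 without siPrp19 replicate 1 (range −0.18 to 0.13). CWC15 was 0.08 without NC replicate 2, 0.083 without siPrp19 replicate 1 and 0.029 in voom without pair 1 (range −0.18 to 0.08). SYF2 was −0.07 without NC replicate 1, −0.10 without NC replicate 3, −0.14 without siPrp19 replicate 2 and −0.043 in voom without pair 1 (range −0.14 to 0.30). Without siPrp19 replicate 2, CRNKL1 was −0.052, ISY1 −0.042, PLRG1 −0.05 and XAB2 −0.02, and XAB2 was −0.033 without NC replicate 3. In voom without pair 2, CRNKL1 was −0.011, ISY1 −0.066 and PLRG1 −0.025. The ranges over these fits were −0.05 to 0.15 for CRNKL1, −0.066 to 0.197 for ISY1 (0.194 at most without 1 sample), −0.05 to 0.12 for PLRG1 and −0.03 to 0.31 for XAB2. CDC5L (−0.17 to −0.02) and CTNNBL1 (0.04 to 0.17) kept their sign in all 20 alternatives. The cause of these changes was not tested beyond the smaller number of samples. Unscaled FPKM tested no other scaling, because the factors were the same in every sample, and ISY1 was not tested with the filter at 5 FPKM.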
